A study of Homo sapiens with 4 samples.

Results

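A set of 41 DNA replication genes was followed in K562 cells, a human erythroleukemia cell line, after 4 h of AC-1041, a fluorinated thalidomide analog. They were chosen by name, through the gene symbol given for each probe or through its transcript accession, among 14267 gene symbols on the array. Of the 41 genes, 40 had a probe, 1 each, and all 40 were tested. No probe was found for POLD2, a small subunit of DNA polymerase delta. Each of 4 two-colour arrays compared RNA of AC-1041-treated K562 cells with RNA of control K562 cells. The sample labels call the control cells untreated, while the methods of the study name DMSO-treated controls. Treated RNA was labelled with Cy5 for arrays 1 and 2, and with Cy3 for arrays 3 and 4. The study names different concentrations in its methods and its results, so no dose is given here. RNA came from whole cultures, so a change in the share of cells that were replicating and a change in RNA per cell cannot be told apart.

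DNA replication starts at origins that are bound by the origin recognition complex (ORC). CDC6 and CDT1 then load the ring-shaped MCM2 to MCM7 helicase, which is switched on by CDC45, the GINS complex and MCM10. DNA polymerases with the clamp PCNA copy both strands, and FEN1 and DNA ligase I join the short fragments of the lagging strand. Many of these genes are transcribed under control of E2F factors as cells enter S phase, and their mRNAs are abundant in dividing leukemia cells.

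E2F-type motifs in the promoters are given first, since E2F control is what these genes are best known to share. Promoter windows of 250 bases before to 50 bases after the start of each gene came from RefSeq (GRCh38.p14) and were found for 36 of the 41 genes, that is for all but MCM4, MCM5, POLD3, RPA2 and RPA3. They were searched on both strands for TTTCGCGC, TTTGGCGC, TTTCCCGC and TTTGCCGC, letters that E2F factors are known to bind and that were chosen with the results known. A match was present in 17 of the 36 windows (47.2%), against 3.33% of 27305 promoter windows of all genes and 5.40% of those of the genes tested. The 5 stretches below lie upstream of genes described later, of which MCM6 and CDT1 had higher levels in treated cells, RFC3 and RRM2 lower levels, and PCNA did not pass the test. Capitals mark the E2F-type match, read on either strand, except in RRM2, where they mark CCAAT, since its window held none of the E2F-type letters. In MCM6 each of the 2 capital runs holds overlapping matches, TTTGGCGC on the strand shown and TTTCGCGC on the other strand. The stretches lie at chr2:135876502-135876615 on the minus strand (MCM6), chr16:88803734-88803781 on the plus strand (CDT1), chr13:33818074-33818121 on the plus strand (RFC3), chr20:5126654-5126701 on the minus strand (PCNA) and chr2:10122596-10122697 on the plus strand (RRM2).
MCM6: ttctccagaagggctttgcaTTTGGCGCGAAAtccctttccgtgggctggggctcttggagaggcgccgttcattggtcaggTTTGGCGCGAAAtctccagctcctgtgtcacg
CDT1: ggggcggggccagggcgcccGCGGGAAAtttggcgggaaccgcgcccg
RFC3: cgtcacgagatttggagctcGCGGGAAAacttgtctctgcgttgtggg
PCNA: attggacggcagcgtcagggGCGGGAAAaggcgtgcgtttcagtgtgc
RRM2: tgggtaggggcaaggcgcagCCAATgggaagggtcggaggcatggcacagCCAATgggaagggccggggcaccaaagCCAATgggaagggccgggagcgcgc

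CCAAT, on either strand, was found in 58.3% of the 36 windows, in 37.8% of those of the genes tested and in 35.7% of all windows. For the GC box GGGCGG the shares were 72.2%, 69.6% and 44.6%, and for TATAAA 5.56%, 6.75% and 11.95%. A match is a run of letters and was not tested for binding. The 17 tested genes with an E2F-type match had a median log2 ratio of 0.04, of which 2 were called higher and 2 lower after adjustment (threshold 0.05). The 18 tested genes with a window but no match had a median of 0.10, with 5 higher and 2 lower. Of all probes tested, 23.2% were called higher and 13.1% lower.

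As a set, the replication genes differed little between treated and control cells. The median log2 ratio (treated over control) was 0.06 over the 40 genes and 0.01 over all 8852 probes tested. The ratios ran from -0.36 for FEN1 to 0.35 for ORC1, so the largest differences were 1.29-fold lower and 1.27-fold higher. All 40 lay within 0.4 of zero, which 84.3% of all probes tested did, and 1607 probes (18.2%) had a larger absolute ratio than any replication gene. By limma, 8 of the 40 genes had a higher level with an adjusted p below 0.05, where 23.2% of all probes tested had. These were ORC1, ORC6, CDT1, MCM6, MCM10, CDC45, RFC1 and RPA2. A lower level was found for 4 of the 40, where 13.1% of all probes had one, namely GINS1, RFC3, FEN1 and RRM2. Both shares were near those of all probes, so the calls do not set the replication genes apart. The 95% confidence intervals of all 40 ratios lay between -0.52 and 0.57, that is between 1.43-fold lower and 1.49-fold higher. Without the term for the dye in the model they were wider and lay between -0.84 and 1.29.

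**Figure D1:**
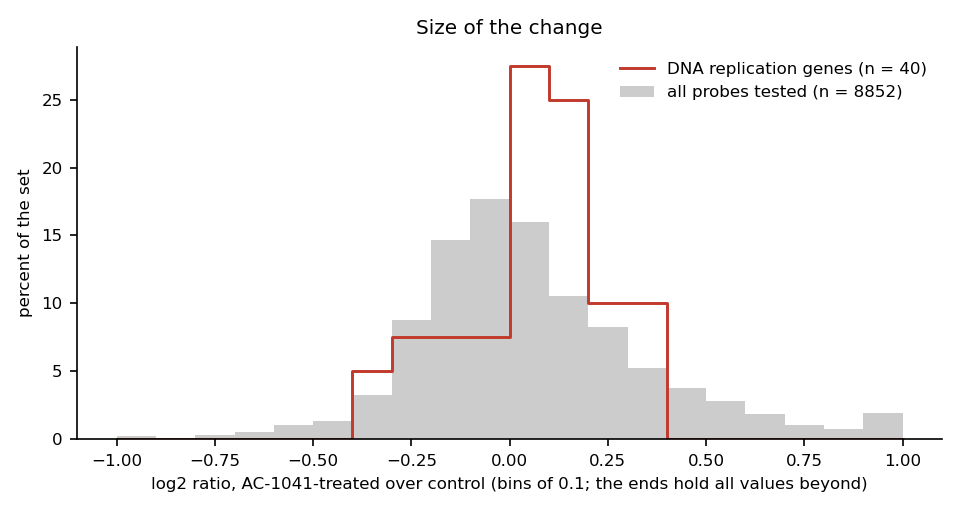
Percent of the 40 DNA replication genes (red line) and of all 8852 probes tested (grey bars) in each bin of 0.1 of the log2 ratio of AC-1041-treated to control cells; the end bins hold all values beyond. The replication genes lie between -0.36 and 0.35, while 15.7% of all probes lie beyond 0.4 in either direction.

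The 2 dye orientations gave different pictures of these genes. With the treated RNA in Cy5 the 40 genes had a median of -0.15, and with the treated RNA in Cy3 it was 0.24. On the single arrays the medians were -0.26, -0.09, 0.24 and 0.21 for arrays 1 to 4. In 31 of the 40 genes the signs were opposite in the 2 orientations, as they were in 61.9% of all probes. Of these, 25 were higher with the treated RNA in Cy3 and lower with it in Cy5, a pattern shown by 32.2% of all probes, and 6 showed the reverse, against 29.7%. In 28 of the 40 genes (70.0%) the dye term itself passed the threshold, against 57.5% of all probes. The widest split was in MCM10, a factor that joins the helicase when it fires, with log2 ratios of -0.75 and -0.59 on arrays 1 and 2 and of 1.13 and 1.28 on arrays 3 and 4. TYMS, thymidylate synthase, split in the same way, with -0.62, -0.89, 0.48 and 0.43 on arrays 1 to 4. The SD over the arrays exceeded the size of the ratio in 35 of the 40 genes (87.5%), against 73.4% of all probes.

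The arrays of the 2 orientations also differed in quality. Negative control spots had an SD of 226 to 308 on arrays 1 and 2 and of 27.8 to 40.5 on arrays 3 and 4, so the effects of orientation and of array quality cannot be told apart. Over all probes, Pearson's r of the log2 ratios was 0.81 within the Cy5 pair (arrays 1 and 2), 0.94 within the Cy3 pair (arrays 3 and 4) and between -0.28 and -0.11 across the pairs. Because the model takes up any difference between orientations as a dye effect, its standard errors, 0.06 to 0.12 for the 40 genes, rest on the differences within an orientation. The SD given for a gene is taken over all its arrays. On array 1 the image software marked the spots of 8 of the 40 genes as outliers, against 8.08% of all probes, namely MCM2, MCM3, MCM6, MCM7, CDC45, GINS2, PCNA and TK1. These spots were left out, so the Cy5 value of these 8 genes rests on array 2 alone. In their estimates array 2 weighs as much as arrays 3 and 4 together, so an estimate can differ from the plain mean over the arrays. For 37 of the 40 genes every spot was well above background in both channels, against 63.1% of all probes, with GINS1, POLD3 and POLE as the exceptions. Of 10 erythroid markers that identify K562, 9 were tested and 7 were well above background in every channel. Of these 9, 5 were lower in treated cells, among them NFE2 with a log2 ratio of -1.31.

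A total of 5 genes both passed the test and had the same direction on every array. ORC1, RFC1 and RPA2 were higher and FEN1 and RRM2 lower, out of 32 genes with a value on all 4 arrays. RFC1 was barely so, with log2 ratios of 0.029 and 0.0022 on arrays 1 and 2. The 5 genes were 15.6% of the 32, where 20.7% of all probes with 4 values passed in this way. Whether called or not, 16.2% of those probes were higher on all 4 arrays and 9.59% were lower. FEN1 and RRM2 were the most stable of these to the processing, each lower at the threshold in 11 of 14 alternative settings. These settings overlap, so 11 is not a count of independent tests. With 1 probe per gene, the mean over probes repeats the main ratio, and the threshold of 0.01 uses the main fit. The processed signals and the series table gave the same calls. The probes of ORC1 and FEN1, the genes at the 2 ends of the range, are shown because they carry the highest and lowest log2 ratios. They are the 60-base designs of the array, at chr1:52613089-52613148 (ORC1) and chr11:61320446-61320505 (FEN1) on hg18, the build of the array files.
ORC1 probe: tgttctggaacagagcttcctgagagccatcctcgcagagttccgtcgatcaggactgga
FEN1 probe: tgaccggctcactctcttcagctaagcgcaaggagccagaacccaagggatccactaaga

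**Figure D2:**
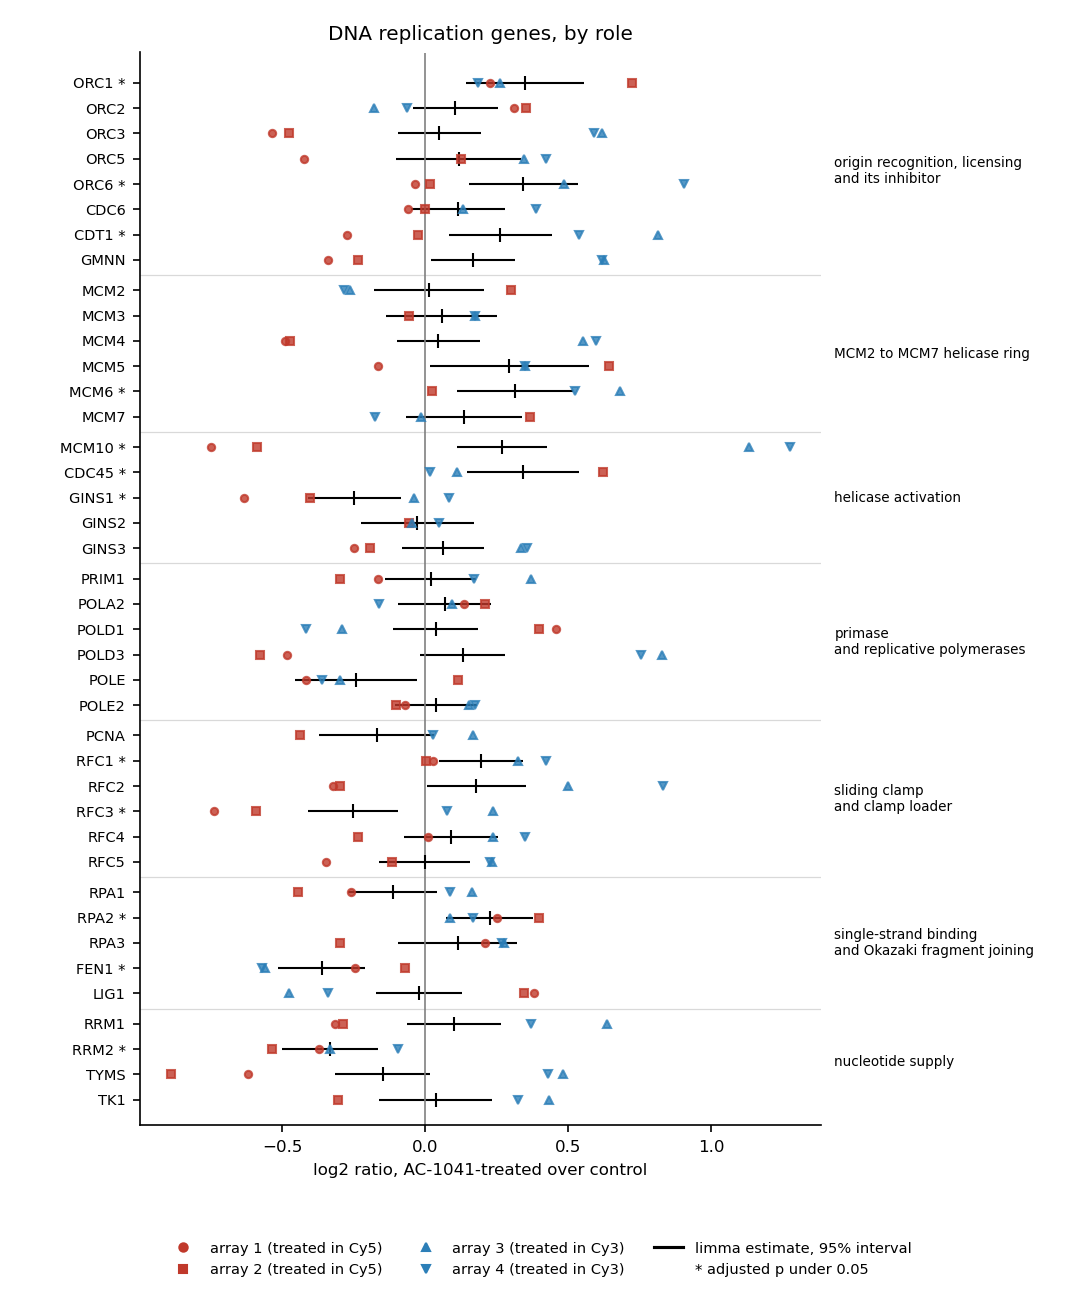
Log2 ratio of AC-1041-treated to control cells of the 40 DNA replication genes on each array (red, treated RNA in Cy5; blue, treated RNA in Cy3), with the limma estimate and its 95% interval in black and an asterisk at an adjusted p under 0.05. In most genes the red and blue points lie apart. All 4 points of ORC1 and RPA2 lie above zero and those of FEN1 and RRM2 below it. The red points of RFC1 lie barely above zero and its blue points higher.

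All 8 genes that mark and license origins, or inhibit licensing, had a positive log2 ratio, as had 4618 of all 8852 probes tested. Their median log2 ratio was 0.14. In 7 of the 8 the mean ratios had opposite signs in the 2 dye orientations, against 61.9% of all probes. Higher levels were called for 3 of the 8 (37.5%, against 23.2% of all probes), ORC1, ORC6 and CDT1. ORC1, the largest ORC subunit, had log2 ratios of 0.23, 0.72, 0.26 and 0.18 on arrays 1 to 4. Array 2 stood above the other arrays, and all 4 were above zero. Its estimate was 0.35 ± 0.25 (SD, n = 4 arrays; SE 0.09, adjusted p = 0.019), a level 1.27-fold higher in treated cells. ORC6, the smallest subunit, had -0.03 and 0.02 on arrays 1 and 2 and 0.49 and 0.91 on arrays 3 and 4, so its rise of 0.34 ± 0.44 (SD, n = 4 arrays; adjusted p = 0.015) came from the arrays with the treated RNA in Cy3. CDT1, which brings the helicase to origins, behaved likewise, with -0.27, -0.03, 0.81 and 0.54 and an estimate of 0.26 (adjusted p = 0.033). At the low end of the group, ORC3 had -0.54 and -0.48 on arrays 1 and 2 but 0.62 and 0.59 on arrays 3 and 4. These cancelled to a log2 ratio of 0.05 ± 0.64 (SD, n = 4 arrays; adjusted p = 0.57). ORC2 showed the reverse split, with 0.31 and 0.35 on arrays 1 and 2 and -0.18 and -0.06 on arrays 3 and 4. The other members were ORC5 (log2 ratio 0.12), CDC6 (0.11), the loader ATPase, and GMNN (0.17), the inhibitor of CDT1, and none passed the test.

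The 6 genes of the MCM2 to MCM7 helicase ring had log2 ratios of 0.01 to 0.31, with a median of 0.10. All 6 were positive, as were 4618 of all 8852 probes tested. However, MCM3 and MCM7 fell below zero with median centring. MCM2 did so with the processed signals of the image software, and MCM2 and MCM3 did so with outlier spots kept. MCM6 was the only ring gene past the threshold (16.7% of the ring, against 23.2% of all probes called higher). It had 0.02 on array 2, 0.68 on array 3 and 0.52 on array 4. Its estimate was 0.31 ± 0.34 (SD, n = 3 arrays; SE 0.09, adjusted p = 0.029), and its plain mean over these arrays was 0.41. Its marked spot on array 1 read -0.16. MCM2, at the low end, had 0.30 on array 2 and -0.26 and -0.29 on arrays 3 and 4. This left an estimated log2 ratio of 0.01 and a plain mean over these arrays of -0.08. MCM2 and MCM6 sit in the same ring and split in opposite ways between the orientations. MCM4 had -0.49 and -0.47 against 0.55 and 0.60, and MCM5 had -0.17, 0.64, 0.35 and 0.35 on arrays 1 to 4. MCM5 had a log2 ratio of 0.29 that missed the threshold (adjusted p = 0.092).

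Among the factors that switch the helicase on, 2 of 5 rose and 1 fell, with a median log2 ratio of 0.06. CDC45, the helicase partner that travels with the ring, had 0.62 on array 2, 0.11 on array 3 and 0.02 on array 4. All 3 were above zero, but the mean with the treated RNA in Cy3 was only 0.06. The estimate was 0.34 ± 0.32 (SD, n = 3 arrays; adjusted p = 0.019), in which array 2 weighs as much as arrays 3 and 4 together. The plain mean of CDC45 over the 3 arrays was 0.25. MCM10 rose by 0.27 on the log2 scale (adjusted p = 0.018) with the wide split between orientations given above, an SD of 1.09. GINS1, also known as PSF1, had -0.63 and -0.40 on arrays 1 and 2 and -0.04 and 0.08 on arrays 3 and 4. Its estimate was -0.25 ± 0.33 (SD, n = 4 arrays; adjusted p = 0.027), and its probe was well above background in the treated channel on 2 arrays and in the control channel on 3. GINS2 and GINS3, subunits of the same complex, had log2 ratios of -0.03 and 0.06 and did not pass. The fall of GINS1 was thus not accompanied by a call in the other GINS genes measured here, though the difference between them was not tested.

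None of the 6 measured genes of primase and the replicative polymerases passed the threshold, against 23.2% of all probes higher and 13.1% lower. Their log2 ratios ran from -0.24 to 0.13, with a median of 0.04, and 1 of the 6 had an unadjusted p under 0.05 by limma. POLE, the catalytic subunit of polymerase epsilon, was lowest, with -0.42, 0.11, -0.30 and -0.36 on arrays 1 to 4. Array 2 alone was above zero, and the estimate was -0.24 ± 0.24 (SD, n = 4 arrays; adjusted p = 0.076). POLD3, an accessory subunit of polymerase delta, was highest at 0.13, with -0.48 and -0.58 on arrays 1 and 2 and 0.83 and 0.76 on arrays 3 and 4. Its probe was well above background in the treated channel on 2 arrays and in the control channel on 1. POLD1, the catalytic subunit of polymerase delta, split the other way, with 0.46 and 0.40 against -0.29 and -0.42, which left 0.04. PRIM1, the primase subunit that makes the RNA primer, had a log2 ratio of 0.02, POLA2 of polymerase alpha 0.07 and POLE2 of polymerase epsilon 0.04.

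All 6 genes of the sliding clamp and its loader had a dye term past the threshold, as had 70.0% of the 40 genes and 57.5% of all probes. RFC1, the large subunit of the loader, had 0.03, 0.00, 0.33 and 0.42 on arrays 1 to 4. It was at zero on the arrays with the treated RNA in Cy5 and higher on the others. Its estimate, 0.20 ± 0.21 (SD, n = 4 arrays; SE 0.06), lay just inside the threshold (adjusted p = 0.045). The adjusted p of RFC1 was under 0.05 in only 7 of 14 alternative settings, counting the stricter threshold, which uses the main fit. RFC3, a small subunit, had -0.74 and -0.59 on arrays 1 and 2 and 0.24 and 0.08 on arrays 3 and 4, giving -0.25 ± 0.48 (SD, n = 4 arrays; adjusted p = 0.022). RFC1 and RFC3, parts of the same complex, were thus called in opposite directions. RFC2 (log2 ratio 0.18), RFC4 (0.09) and RFC5 (0.00) did not pass. PCNA, the clamp itself, had -0.44 on array 2, 0.17 on array 3 and 0.03 on array 4. Its estimated log2 ratio of -0.17 did not pass (adjusted p = 0.16), and its plain mean over these arrays was -0.08.

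Among the 5 genes of single-strand binding and fragment joining, 1 was called higher (against 23.2% of all probes) and 1 lower (against 13.1%). RPA2, the middle subunit of the single-strand binding protein RPA, had 0.25, 0.40, 0.09 and 0.17 on arrays 1 to 4, all above zero. Its estimate was 0.23 ± 0.13 (SD, n = 4 arrays; SE 0.07, adjusted p = 0.030), 1.17-fold higher in treated cells. RPA1 and RPA3, the other RPA subunits, had log2 ratios of -0.11 and 0.11 and did not pass. FEN1, the nuclease that trims the flap of each lagging-strand fragment, had -0.25, -0.07, -0.56 and -0.57. All 4 arrays were below zero, with the larger values on arrays 3 and 4. FEN1 fell by 0.36 on the log2 scale, a log2 ratio of -0.36 ± 0.25 (SD, n = 4 arrays; SE 0.07, adjusted p = 0.0044), the lowest adjusted p of the 40 genes. LIG1, DNA ligase I, which seals the fragments after FEN1, had 0.38 and 0.35 on arrays 1 and 2 and -0.48 and -0.34 on arrays 3 and 4, and these cancelled to -0.02.

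Of the 4 nucleotide supply genes among the 41, RRM2, RRM1, TYMS and TK1, only RRM2 passed the test. That is 1 of 4 lower and 0 higher, where 13.1% of all probes were called lower and 23.2% higher. RRM2, the regulatory subunit of ribonucleotide reductase whose level is known to follow S phase, had -0.37, -0.54, -0.33 and -0.10 on arrays 1 to 4. All 4 arrays were below zero, and array 4 was closest to it. The estimate was -0.33 ± 0.18 (SD, n = 4 arrays; SE 0.07, adjusted p = 0.0097), 1.26-fold lower in treated cells. RRM1, the large subunit of the same enzyme, had -0.31, -0.29, 0.63 and 0.37, a log2 ratio of 0.10 that did not pass (adjusted p = 0.30). TYMS, with the split given above, came to -0.15 ± 0.71 (SD, n = 4 arrays), and TK1, thymidine kinase, to 0.04.

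To place these values, 66 other genes of replication and S phase entry were listed, of which 59 could be tested. Among them 10 were higher (16.9%, against 23.2% of all probes) and 8 lower (13.6%, against 13.1%), with a median log2 ratio of 0.01. Of the 55 with a value on every array, 6 (10.9%) were called with the same direction throughout, against 20.7% of all probes. DTL, the adaptor through which the CRL4 ubiquitin ligase destroys CDT1 at PCNA, had 0.49, 0.72, 0.69 and 0.84 on arrays 1 to 4, an estimate of 0.69 ± 0.15 (SD, n = 4 arrays; SE 0.07, adjusted p = 0.00038). It was 1.61-fold higher and thus beyond the range of the 40 replication genes. RBL2 and RBL1, pocket proteins that restrain E2F, had log2 ratios of 0.49 (adjusted p = 0.0015) and 0.22 (adjusted p = 0.029). Lower were TFDP1 (-0.28) and TFDP2 (-0.21), the partners of E2F in DNA binding, and UNG (-0.27), which removes uracil from DNA. RRM2B, the ribonucleotide reductase subunit induced by p53, was called higher at 0.47 (adjusted p = 0.0015), but its arrays read -0.06, 0.14, 0.87 and 0.93, so arrays 1 and 2 lay near zero. CDC7, the kinase that fires origins, showed the same layout, with -0.04, 0.29, 0.99 and 1.05 and an estimate of 0.57.

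**Figure D3:**
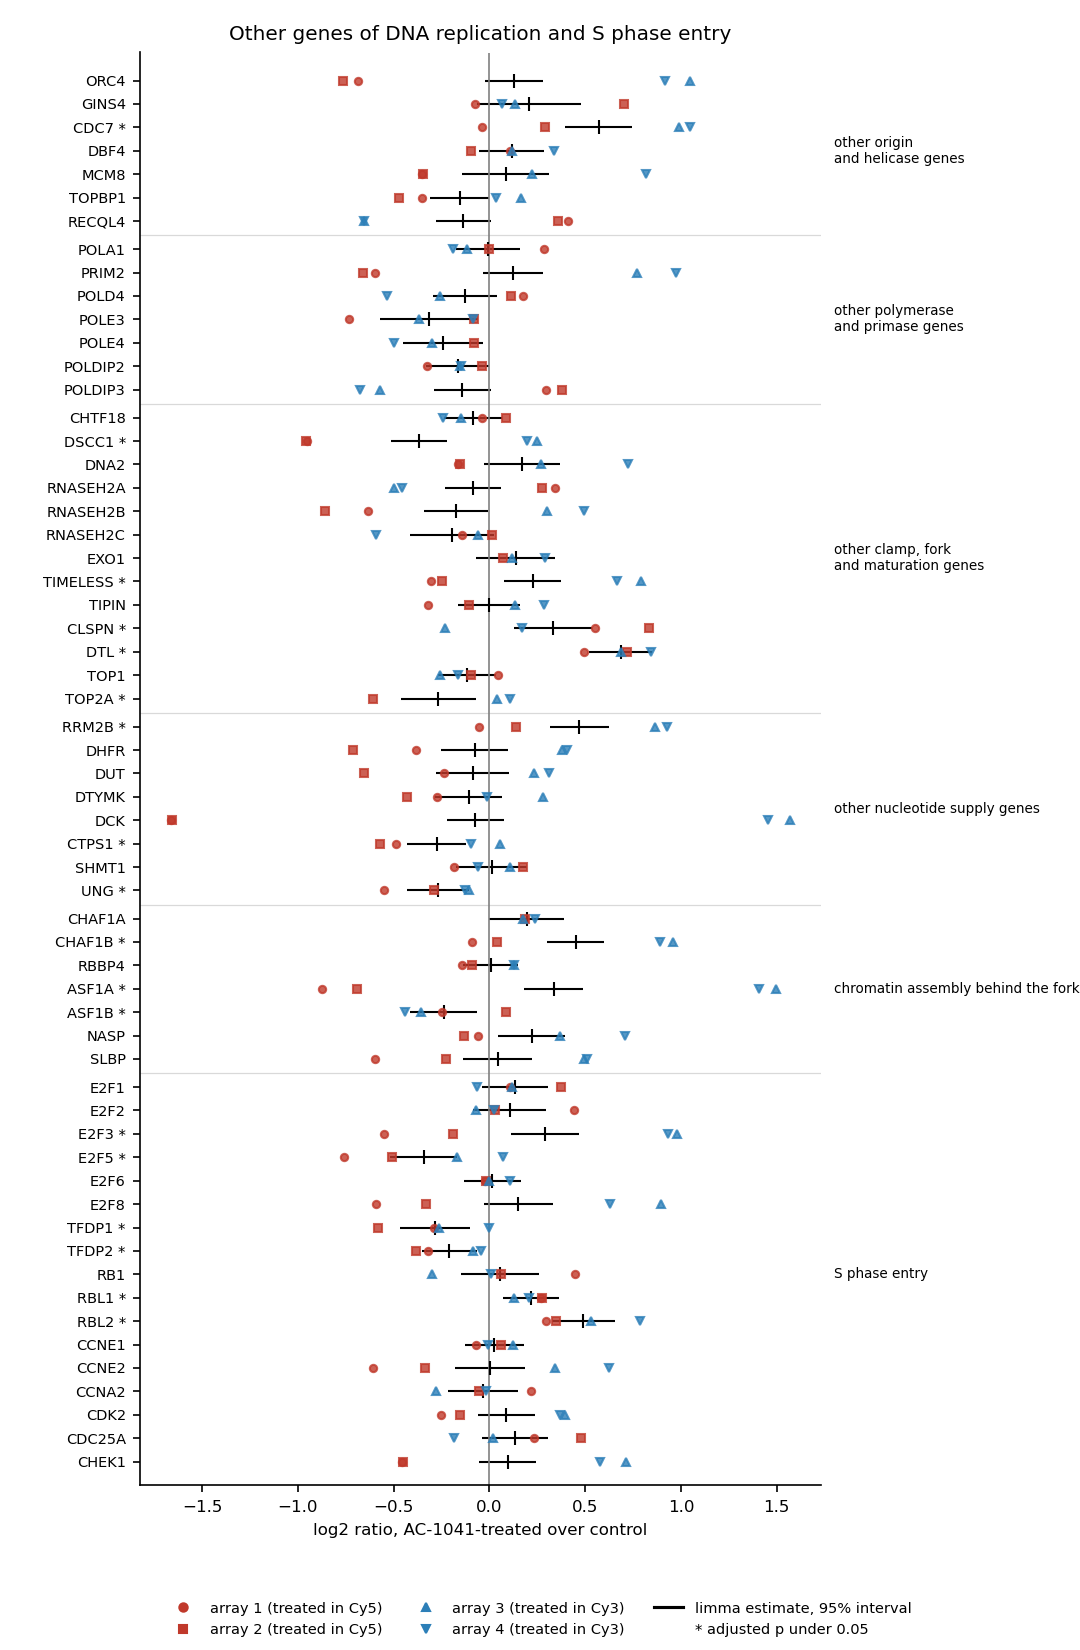
Log2 ratio of AC-1041-treated to control cells of 59 further genes of replication and S phase entry on each array (red, treated RNA in Cy5; blue, treated RNA in Cy3), with the limma estimate and its 95% interval in black and an asterisk at an adjusted p under 0.05. The 4 points of DTL lie between 0.49 and 0.84, while those of most other genes separate by dye.

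How many replication genes were called depended on the model and on single arrays. Without the dye term no replication gene passed in either direction, with 1 higher and 2 lower at an unadjusted p under 0.05 and a smallest adjusted p of 0.31, where 0.559% of all probes were called higher and 0.0448% lower. Arrays 1 and 2 taken alone gave 1 higher (against 13.2% of all probes) and 8 lower (against 17.1%) among the 32 genes they measured. Arrays 3 and 4 taken alone gave 22 higher (against 39.5%) and 6 lower (against 30.6%). Of the 7 genes called in both of these fits, 6 were called in opposite directions. MCM10, MCM4, ORC3, POLD3 and TYMS were lower on arrays 1 and 2 and higher on arrays 3 and 4, and POLD1 was the reverse. RRM2 was lower in both, and FEN1 was called lower only with arrays 3 and 4. With the signals processed by the image software 2 genes were higher, MCM5 and POLD3, and 5 lower, and the calls shared with the main result were FEN1, GINS1, RFC3 and RRM2. Without array 3 or without array 4, FEN1 and RRM2 missed the threshold as well.

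**Figure D4:**
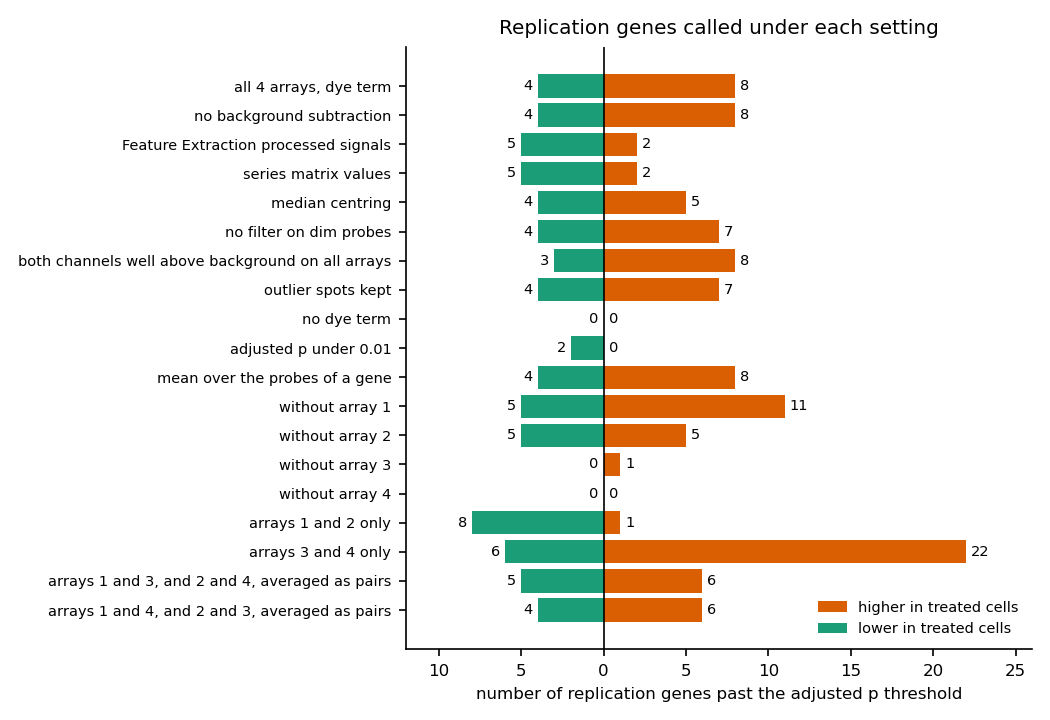
Number of DNA replication genes past the threshold under each setting, higher in treated cells to the right (orange) and lower to the left (green), counted away from zero on both sides. The counts run from 0 and 0 without the dye term or without array 4 to 22 higher and 6 lower on arrays 3 and 4 alone.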

How the data were processed

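Total RNA of K562 cells, treated with AC-1041 or control, was amplified, labelled with Cy5 or Cy3 and hybridised as pairs to 4 arrays of 14833 features, of which 14297 were gene probes and 536 control spots. The authors scanned the arrays, quantified them with Agilent Feature Extraction 9.5.1.1 and deposited, per the file headers, spot and local background intensities of both channels, not normalized. The deposited series table holds log10 ratios, which lay within 0.001 of the log10 ratio of treated over control in the array files for at least 99.9% of 14297 values per array, each array with a median of 0.0. The files also give the ratio and signals processed by the software.

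From the deposited intensities, normexp (offset 50, fitted on all spots) was used for background and loess for normalization (span 0.3, control spots at weight 0). Outlier spots were left out. Probes had to stand well above background on 2 or more arrays, in either channel. Log2 ratios were fitted in R 4.3.3 by limma 3.58.1, with terms for treatment and dye, on 8852 probes, with Benjamini-Hochberg adjustment over all of them and a threshold of 0.05. The step was tested on simulated data, with planted changes larger than any ratio of the replication genes. Recovery of changes as small as theirs was not tested. RefSeq accessions (GRCh38.p14, names only) named 12002 probes, and the rest go by their deposited name. Probe positions are on hg18.

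The 41 genes, their roles, the other replication genes and the motifs were chosen with earlier results of these data known, so no set test was run. All 41 are accounted for, and those given by array are the ones called with the same direction on all 4 arrays and the highest and lowest of each role, with some others chosen after their values were seen. Of the other replication genes, those called with the same direction on all 4 arrays are named, and RRM2B and CDC7 were added after their values were seen.

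The methods state that the array study was done in quadruplicate with dye swap, but not which RNA went on which array. The arrays were taken as 4 replicates. With the dye term, p-values measure only the spread between arrays of the same dye orientation, which may be technical. They do not measure the SD over all arrays printed beside them. Slide and scan date were the same for all 4, so no block for them was possible. The number of arrays limits the precision. Alternatives were no background subtraction, the processed signals, the series table, median centring, other filters, outliers kept, no dye term, a stricter threshold, the mean over probes, each array left out, and, chosen after seeing the data, each orientation alone and arrays averaged as pairs.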

Additional observations from a re-analysis of the deposited data

Results flagged for a closer look

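In 2 of the 32 replication genes with a value on all 4 arrays, 1 array stood apart from the other arrays by Dixon's criterion. Chance passes it in about 1 of 20 groups of values drawn from a single distribution. The dye term passed the threshold in 28 of the 40 genes, so this rate need not hold here. For ORC1 the gap of array 2 (log2 ratio 0.72) to the next array was 0.855 of the whole range, the other arrays reading 0.18 to 0.26. For RPA3, a subunit of the single-strand binding protein, array 2 (-0.30) lay below the others (0.21 to 0.27) by 0.887 of the range. Array 2 was also the array with the widest negative control spots, and the part of this in both values was not tested. Without array 2, ORC1 was still called higher, and RPA3 was called higher as well.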

How the results depend on the processing

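The main counts were 8 replication genes higher and 4 lower, and 10 and 8 of the other replication genes. The number higher became 2 with processed signals, 2 with the series table, 5 with median centring, 0 without the dye term, 0 at an adjusted p under 0.01 (11 at an unadjusted p under 0.05), and, in fits added after seeing the data, 1 on arrays 1 and 2 and 22 on arrays 3 and 4. The number lower became 0 without the dye term, 2 at the stricter threshold (FEN1 and RRM2) and 8 on arrays 1 and 2. Arrays averaged as pairs gave 6 higher with 5 or 4 lower. Of the other replication genes, 0 were higher without the dye term (3 at an unadjusted p under 0.05) and 6 at the stricter threshold, and lower were 3 with median centring, 0 without the dye term (0 unadjusted) and 1 at the stricter threshold. Leaving out each array gave 0 to 11 replication genes higher, 0 to 5 lower and a median log2 ratio of 0.05 to 0.07, and 5 to 16 others higher and 0 to 10 lower. Without array 1 there were 11 and 5 calls among 40 genes. In the other 3 fits 32 genes could be tested, since the 8 genes marked on array 1 dropped out, MCM6 and CDC45 among them. These gave 5 and 5 calls without array 2, 1 and 0 without array 3 (5 and 3 at an unadjusted p under 0.05) and 0 and 0 without array 4 (3 and 3). The median was -0.16 on arrays 1 and 2 and 0.24 on arrays 3 and 4, and stayed within 0.05 to 0.08 in all planned settings. Over all probes, 79.5% of calls were higher with median centring, against 63.9% with loess and 57.9% with processed signals.

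In the planned settings the genes that changed sign were ones not called in the main fit. Between the orientations called genes changed sign too, since 5 of the 12 (CDT1, GINS1, MCM10, ORC6 and RFC3) had a mean of the opposite sign in 1 orientation, and MCM10, higher in the main fit, was called lower on arrays 1 and 2. RFC5 read 0.0011 without background subtraction, 0.0077 with processed signals, 0.0076 with the series table and 0.0051 with median centring. MCM2 read -0.018 with processed signals and with the series table, -0.030 with outlier spots kept and -0.083 without the dye term. GINS3 read -0.025 with processed signals and with the series table. With median centring MCM3 read -0.083, MCM7 -0.0044, PRIM1 -0.0071, LIG1 0.058 and TK1 -0.081, and with outlier spots kept MCM3 read -0.016 and GINS2 0.041. With an array left out, ORC5 ran from -0.021 to 0.25, PRIM1 from -0.031 to 0.069, RFC5 from -0.059 to 0.057, RPA3 from -0.014 to 0.24 and LIG1 from -0.056 to 0.011. An orientation left with 1 array was assumed to vary like the other. The cause of these changes was not tested. Every log ratio pairs a treated with a control RNA on 1 array. Beyond this, a block by replicate number could not be fitted. No paired analysis was possible because the labels give a single group, so no replicate number is shared between groups.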
